A study of Homo sapiens with 9 samples.

Results

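The phosphoinositide kinases described here are 10 genes, PI4K2A, PI4K2B, PI4KA, PI4KB, PIP5K1A, PIP5K1C, PIP4K2A, PIP4K2B, PIKFYVE and PIK3C3. Their mRNA was measured in vesicles released by H9 cells, a long-established line of embryonic stem cells of human origin (hESCs). Every probe set of the Affymetrix HG-U133 Plus 2.0 array whose annotation holds the symbol of a member was taken, alone or among several symbols. This gave 30 of 54,675 probe sets, and 10 of the 19,775 genes that could be represented by a probe set of their own. PIK3C3 had 7 probe sets, PIP4K2B had 4, and PI4K2A, PI4KB, PIP5K1A, PIP4K2A and PIKFYVE had 3 each. PI4KA had 2, and PI4K2B and PIP5K1C had 1 each.

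Total RNA came from microvesicles (MVs, 3 arrays), exosomes (EXOs, 3 arrays) and non-fractionated vesicles (hESEVs, 3 arrays). All were collected from serum-free medium of untreated H9 hESCs, and each group is therefore a model of vesicles from this cell line only. A spin of 1 hour at 16,500g pelleted MVs, and a spin of 2 hours at 120,000g then pelleted EXOs out of the supernatant, so that the fractions are defined by how they sediment. hESEVs were pelleted by ultracentrifugation without that separation, at a speed that the labels and the study's methods give differently. The study's methods describe the replicates as biological, from separate hESC cultures. By electrophoresis the study found mostly long RNA in MVs and mainly short RNA in EXOs. The bearing of this difference on the array signals was not tested.

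Phosphoinositides are phosphorylated forms of phosphatidylinositol (PI), a membrane lipid, and each form marks particular membranes of the cell and recruits its own set of proteins. PI 4-kinases make PI4P, which the type I PIP 5-kinases turn into PIP2, the main form at the plasma membrane. PIK3C3 and PIKFYVE make the forms that mark endosomes, the compartments in which exosomes arise. These are functions of the proteins in cells, whereas the arrays measured only the mRNA that the vesicles carried.

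Signals are given in MAS5 units, a linear intensity per probe set that the authors scaled so that every array had the same trimmed mean. As a background level, the 90th percentile of 33 genes of liver, muscle, blood and other tissues that hESCs should lack was taken in each group. It was 945 in MVs, 1313 in EXOs and 1027 in hESEVs. Of the 33 genes, KRT10 averaged 1664 in MVs and 326 in EXOs, and ACTA1 1493 and 314. Both raise the level in MVs. A level without them was not computed, so MVs means just under 945 cannot be firmly placed below background. Of all probe sets, 13.0% in MVs, 5.54% in EXOs and 10.8% in hESEVs had a mean above the background level. Of 10 hESC markers measured, 10 lay above it in MVs, 4 in EXOs and 10 in hESEVs. Of 7 vesicle markers, 6 did in MVs, 1 in EXOs and 5 in hESEVs. These counts are of mRNA, whereas the study's Western blots found more CD9, CD63 and CD81 protein in EXOs than in MVs. Array medians ran between 358 and 365 in MVs, 422 and 430 in EXOs, and 415 and 421 in hESEVs. The median probe set was accordingly lower in MVs than in EXOs by a log2 fold change of -0.29. When each array was instead centred on its own median this became -0.06, so values below are to be read against that shift. In such preparations fewer vesicles that carry a transcript and less of it per vesicle cannot be told apart.

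The median of the 30 member means was 428 in MVs, 477 in EXOs and 445 in hESEVs, above the array medians of each group. Only 4 of the 30 probe sets had a mean above the background level in any group, and they belonged to 3 genes, PI4K2A, PI4KB and PIP5K1A. In MVs this was 1 probe set, in EXOs 3 and in hESEVs 3, to be read against the shares of all probe sets above it. The other 7 genes had no probe set above it in MVs, EXOs or hESEVs, and their values below carry that limit.

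**Figure D1:**
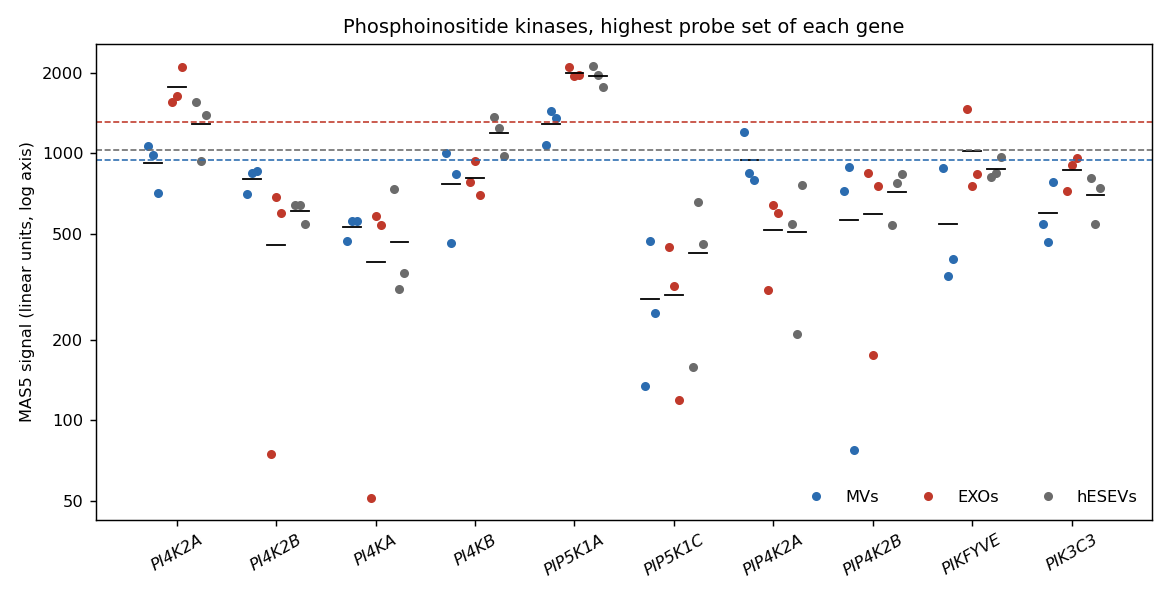
MAS5 signal (linear units, log axis) of the brightest probe set (by mean log2 signal) of each of the 10 genes on every array of MVs, EXOs and hESEVs. Points are arrays, short black lines group means, and dashed lines the background levels of 945 in MVs, 1313 in EXOs and 1027 in hESEVs, in the colours of the groups. PIP5K1A lay above the level of its group in all 3 groups and PI4K2A in EXOs and hESEVs.

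PI4K2A (gene ID 55361, chromosome 10) encodes the type II PI 4-kinase of endosomes and the trans-Golgi network. The study named it for the comparison of MVs with EXOs on these arrays, so its difference between MVs and EXOs is a description and was not tested. Its brightest probe set, 209345_s_at, gave signals of 1067, 989 and 713 on the MVs arrays, 1555, 1643 and 2102 on the EXOs arrays, and 1554, 939 and 1388 on the hESEVs arrays. Every EXOs array lay above every MVs array, while the hESEVs arrays overlapped with the MVs arrays and came within 2 units of the lowest EXOs array. Means were 923 ± 186 in MVs, 1767 ± 294 in EXOs and 1293 ± 318 in hESEVs (SD, n = 3 each).

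The probe set 215134_at of PI4K2A gave 432.5, 461 and 912 in MVs, 1946, 1537 and 1655 in EXOs, and 852, 1132 and 954 in hESEVs. The EXOs arrays again stood clear of all others, and the third MVs array was about as high as the hESEVs arrays. At 209346_s_at the signals were 551, 651 and 588.5 in MVs, 798, 1173 and 706 in EXOs, and 899, 866 and 828.5 in hESEVs. Here the MVs arrays were below all others and the EXOs arrays spread around those of hESEVs, all under the background level of their group.

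On the log2 scale, after signals under 32 were raised to 32, the signals of the 3 probe sets were 1.93-fold, 3.01-fold and 1.46-fold lower in MVs than in EXOs. None of their MVs means was above the MVs background level, though the mean of 923 at 209345_s_at was close to it. These ratios are therefore set against a signal that was not above that level. These are log2 fold changes of -0.95 ± 0.20, -1.59 ± 0.29 and -0.55 ± 0.24 (SE) for 209345_s_at, 215134_at and 209346_s_at. With each array centred on its median, the values for the 2 brighter probe sets were -0.71 and -1.36. All 3 were lower in MVs with quantile normalization, centring and the shift to the hybridization spike-ins.

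The comparisons with hESEVs use the same MVs and EXOs arrays on which PI4K2A was picked, and they are no independent evidence on it. In MVs minus hESEVs its log2 fold changes were -0.48 ± 0.23, -0.78 ± 0.27 and -0.54 ± 0.22 (SE), with limma adjusted p = 0.251, 0.119 and 0.179. In EXOs minus hESEVs they were 0.47 ± 0.23, 0.81 ± 0.27 and 0.01 ± 0.22, with adjusted p = 0.472, 0.229 and 0.995. None passed, and for 209345_s_at the 95% confidence intervals ran between -0.98 and 0.03 for MVs minus hESEVs and between -0.03 and 0.97 for EXOs minus hESEVs. The order of the levels of this probe set was EXOs, hESEVs and MVs, and neighbours in it did not differ beyond the spread between arrays. Without the third MVs array, 215134_at was lower in MVs than in hESEVs by a log2 fold change of -1.12 (adjusted p = 0.00952), which passed.

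**Figure D2:**
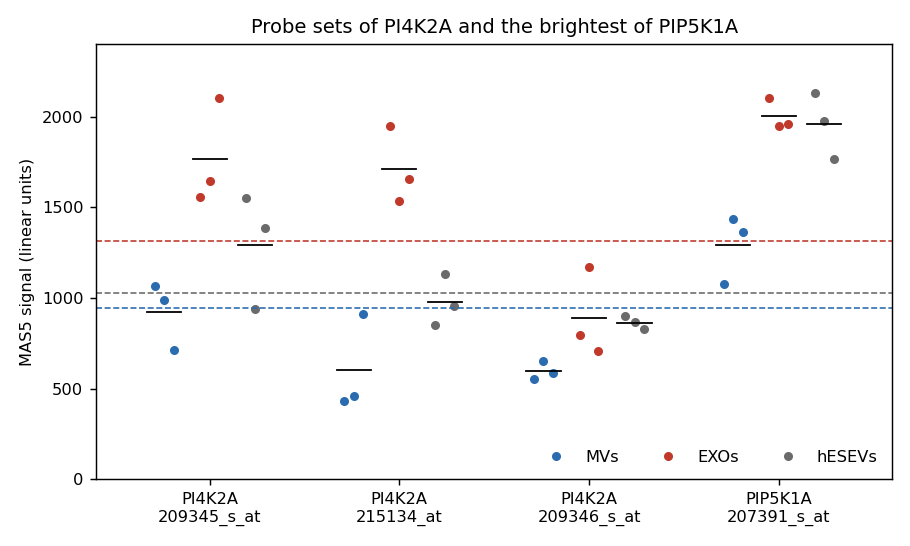
MAS5 signal (linear units) of the 3 probe sets of PI4K2A and the brightest probe set of PIP5K1A in MVs, EXOs and hESEVs. Points are arrays, short black lines group means and dashed lines the background levels of the groups in their colours; at each of the 4 probe sets the MVs arrays lay below all EXOs arrays.

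PI4K2B (gene ID 55300, chromosome 4) encodes the other type II PI 4-kinase, which is found mainly in the cytosol and at the plasma membrane. Its only probe set, 222631_at, is also paired with the transcript SEPSECS-DT, so the gene behind its signal is uncertain. It gave 707, 841 and 858 in MVs, 74.9, 686 and 598.5 in EXOs, and 642, 643 and 542 in hESEVs. All MVs arrays lay above all EXOs and hESEVs arrays, and the first EXOs array stood far below the other two. The log2 fold change in MVs minus EXOs was 1.35 ± 0.79 (SE, adjusted p = 0.303). Without that EXOs array it was 0.32.

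The type III PI 4-kinases are large soluble enzymes that work at the plasma membrane (PI4KA) and the Golgi (PI4KB). PI4KA (gene ID 5297, chromosome 22) had its higher signals at 213408_s_at, which is also paired with the pseudogenes PI4KAP1 and PI4KAP2. It gave 469.5, 558 and 559 in MVs, 51.2, 584 and 537 in EXOs, and 733, 310 and 356 in hESEVs. The groups overlapped, and the first EXOs array was again the lowest. Its log2 fold change in MVs minus EXOs was 1.06 ± 0.89 (SE, adjusted p = 0.473) and became -0.09 without that array.

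The probe set 207081_s_at, paired with PI4KA alone, had the highest positive value among the members and was singled out after its values were seen. Its signals were 448, 343 and 168 in MVs, 103, 41.1 and 34.4 in EXOs, and 452.5, 60.7 and 35.3 in hESEVs. Every MVs array exceeded every EXOs array, whereas the hESEVs arrays overlapped with both, and all signals were below the background levels. The difference of MVs minus EXOs, a log2 fold change of 2.49 ± 0.68 (SE), missed the threshold with an adjusted p = 0.0544. It passed with centring (2.72, adjusted p = 0.0399) and with the shift to the spike-ins (2.55, adjusted p = 0.0464). It also passed with 1 probe set per gene (adjusted p = 0.0297) and without the first EXOs array (2.97, adjusted p = 0.0498). It missed the threshold with quantile normalization (2.65, adjusted p = 0.0503) and with floors of 1 (2.49, adjusted p = 0.061) and 100 (1.55, adjusted p = 0.0651). Across the alternatives the adjusted p reached 0.151. The EXOs signals of 41.1 and 34.4 lay close to the floor used here, and the size of the difference fell with the higher floor. In MVs minus hESEVs the log2 fold change of this probe set was 1.58 ± 0.93 (adjusted p = 0.355).

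PI4KB (gene ID 5298, chromosome 1) gave 1000, 461 and 835 in MVs at 206139_at, against 783, 937 and 699 in EXOs and 1362.5, 1244 and 974 in hESEVs. MVs and EXOs overlapped, and the hESEVs mean of 1194 ± 199 (SD, n = 3) was the only mean of the 3 groups above its background level. The log2 fold changes were -0.14 ± 0.31 (SE, adjusted p = 0.803) in MVs minus EXOs, -0.70 ± 0.28 (adjusted p = 0.173) in MVs minus hESEVs and -0.56 ± 0.28 (adjusted p = 0.492) in EXOs minus hESEVs. The probe sets 206138_s_at and 210417_s_at of the same gene had the other sign in MVs minus EXOs, with 0.43 ± 0.35 and 0.28 ± 0.51, and did not pass either. With centring 206139_at also became positive, at 0.10.

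PIP5K1A (gene ID 8394, chromosome 1) encodes a type I PIP 5-kinase, which makes PIP2 from PI4P, and it had the highest signals of all members. At 207391_s_at they were 1077, 1436 and 1362 in MVs, 2101, 1949 and 1961 in EXOs, and 2131.5, 1973 and 1766 in hESEVs. All MVs arrays were below all arrays of EXOs and hESEVs, and EXOs and hESEVs overlapped. The means of 1291 ± 190 in MVs, 2004 ± 85 in EXOs and 1957 ± 183 in hESEVs (SD, n = 3 each) stood at the 92.1, 98.2 and 97.5 percentiles of all probe sets in MVs, EXOs and hESEVs.

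PIP5K1A mRNA was 1.56-fold lower in MVs than in EXOs, a log2 fold change of -0.64 ± 0.14 (SE, limma adjusted p = 0.0243), and 1.52-fold lower in MVs than in hESEVs (-0.61 ± 0.14, adjusted p = 0.0235). Both differences exceeded the spread between arrays but not the 2-fold threshold, so neither counted as a call. Relative to the array medians the difference was smaller, at -0.41 (adjusted p = 0.132) for MVs minus EXOs and -0.39 (adjusted p = 0.15) for MVs minus hESEVs. With quantile normalization the MVs minus EXOs value was -1.17 (adjusted p = 0.00108), which passed both thresholds. In EXOs minus hESEVs it was 0.04 ± 0.14 (adjusted p = 0.956), with a 95% confidence interval between -0.27 and 0.35.

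The other probe sets of PIP5K1A were dim. Signals at 211205_x_at lay between 117 and 575.5 in MVs, 169 and 495 in EXOs and 280 and 502 in hESEVs. At 210256_s_at they lay between 61 and 163 in MVs, 67.3 and 534 in EXOs and 125 and 233 in hESEVs. Their groups overlapped, and their log2 fold changes in MVs minus EXOs were -0.06 ± 0.71 and -0.79 ± 0.87 (SE). PIP5K1C (gene ID 23396, chromosome 19) encodes the type I enzyme known for its part at synapses and focal adhesions. Its only probe set, 212518_at, gave 135, 469 and 252 in MVs, 446, 318 and 119 in EXOs, and 158, 657 and 458 in hESEVs. The 3 groups overlapped throughout, and the log2 fold change in MVs minus EXOs was -0.03 ± 0.71 (adjusted p = 0.987). Its 95% confidence interval ran between -1.68 and 1.62 and thus includes differences of more than 2-fold in either direction.

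The type II PIP 4-kinases PIP4K2A and PIP4K2B make PIP2 from PI5P. PIP4K2A (gene ID 5305, chromosome 10) gave 1199, 842 and 793.5 in MVs at 212829_at, against 308, 643 and 598 in EXOs and 544, 211 and 760.5 in hESEVs. The MVs arrays were above all others at this probe set. Their mean of 944.8 lay just under the MVs background level of 945.1. The log2 fold change in MVs minus EXOs was 0.92 ± 0.33 (SE, adjusted p = 0.12) and in MVs minus hESEVs 1.07 ± 0.46 (adjusted p = 0.21). Its other probe sets, 229713_at and 205570_at, had the other sign in MVs minus EXOs, with -0.64 ± 0.89 and -0.95 ± 0.86.

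PIP4K2B (gene ID 8396, chromosome 17) was measured by 4 probe sets. At the brightest, 1553047_at, signals were 724, 887 and 77.3 in MVs, 846, 175 and 753 in EXOs, and 540, 772 and 833.5 in hESEVs. Low arrays occurred in MVs and in EXOs, the groups overlapped, and the log2 fold change in MVs minus EXOs was -0.39 ± 1.01 (SE, adjusted p = 0.833). The probe sets 1553048_a_at and 201081_s_at were also lower in MVs, with -1.17 ± 0.72 and -0.57 ± 0.30, and 201080_at was higher, with 1.15 ± 0.97. None of these passed. Signals at 201080_at were 215, 33.8 and 409 in MVs, 59.9, 37.1 and 122 in EXOs, and 35.9, 35.8 and 30.9 in hESEVs, close to the floor of 32 on the arrays of hESEVs. Its log2 fold change in MVs minus hESEVs was 2.06 ± 0.82 (adjusted p = 0.169), and it passed without the second MVs array (3.10, adjusted p = 0.0172).

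PIKFYVE (gene ID 200576, chromosome 2) encodes the kinase that phosphorylates PI3P on late endosomes and lysosomes. At 1553917_at it gave 884, 348 and 403 in MVs, 1467, 754 and 834 in EXOs, and 818, 841 and 969 in hESEVs. The MVs and EXOs arrays overlapped through the first MVs array, and the highest signal came from the first EXOs array. The log2 fold change was -0.97 ± 0.41 (SE, adjusted p = 0.172) in MVs minus EXOs and -0.81 ± 0.36 (adjusted p = 0.221) in MVs minus hESEVs. Without the first MVs array the comparison with hESEVs passed, with -1.22 (adjusted p = 0.0497). The probe sets 213111_at and 1557719_at had the other sign in MVs minus EXOs, with 0.36 ± 0.28 and 0.84 ± 1.15.

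PIK3C3 (gene ID 5289, chromosome 18), also called VPS34, is the class III PI 3-kinase that makes PI3P on early endosomes and autophagosome precursors. Its brightest probe set, 215394_at, gave 545, 464 and 784 in MVs, 723, 907 and 964 in EXOs, and 811, 544 and 744 in hESEVs. The groups overlapped, and the log2 fold change in MVs minus EXOs was -0.56 ± 0.25 (SE, adjusted p = 0.197). Of the 7 probe sets, 3 had a positive and 4 a negative value in MVs minus EXOs, between -0.73 and 0.89. At 229705_at the MVs signals of 512, 355 and 425 were below the EXOs signals of 641, 791 and 649.5, while the hESEVs arrays had 564, 630 and 577. At 1569272_at the MVs signals of 271, 383 and 264 were above the EXOs signals of 90.2, 241 and 200, and the hESEVs arrays had 93.6, 230.5 and 342. These 2 probe sets of the same gene separated MVs and EXOs in opposite directions, and neither passed, with adjusted p = 0.123 and 0.359.

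Probe sets of a gene sample different stretches of its transcripts. Of the 8 genes with several probe sets, 5 (PI4KB, PIP4K2A, PIP4K2B, PIKFYVE and PIK3C3) had both signs in MVs minus EXOs. Only PI4K2A, PI4KA and PIP5K1A had the same sign throughout, and for PIP5K1A this did not hold with quantile normalization, centring or the shift to the spike-ins, where 211205_x_at turned positive. PI4K2A was chosen for its difference, so its common sign is a description. Of the 30 probe sets, 12 had a positive and 18 a negative value in MVs minus EXOs, or 12 and 15 without PI4K2A, and of all probe sets 35.9% had a positive value. With centring the counts for the 30 were 15 and 15, and with quantile normalization and with the spike-ins they were 14 and 16 each.

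**Figure D3:**
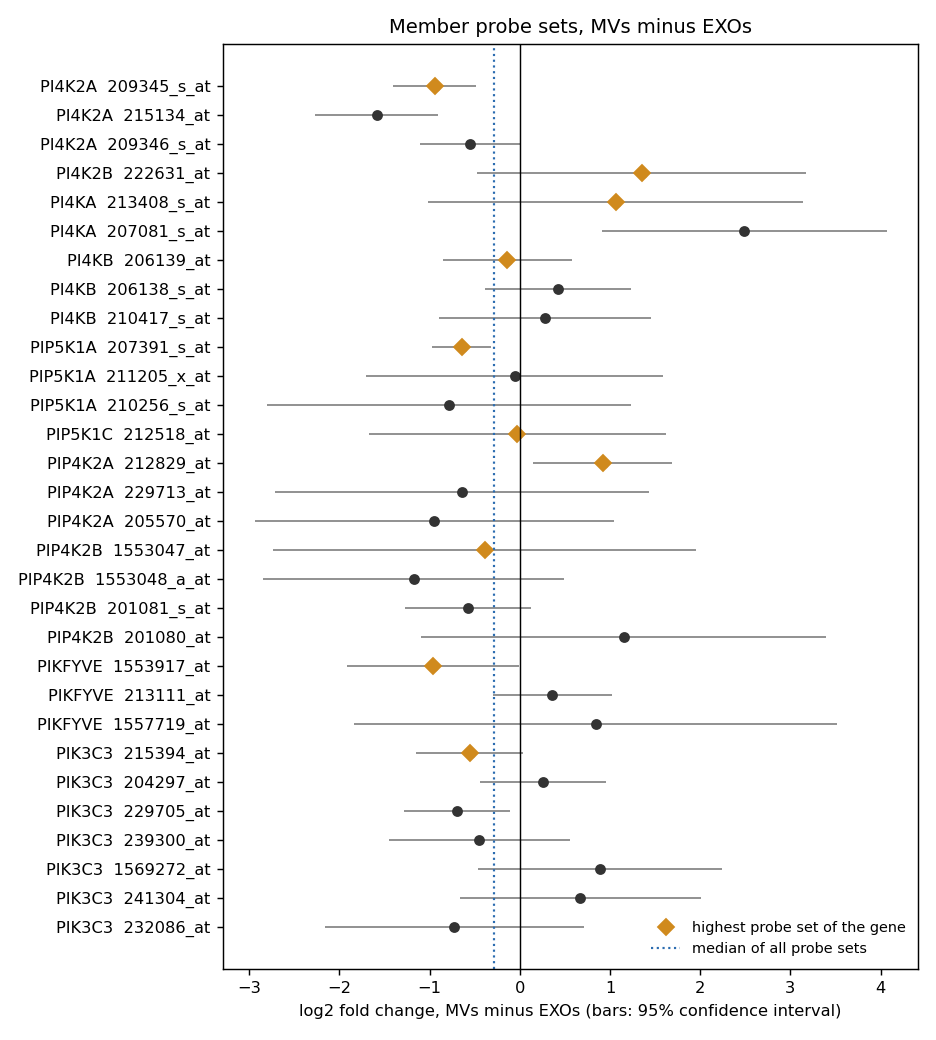
Log2 fold change (MVs minus EXOs) of all 30 probe sets, grouped by gene, with 95% confidence intervals as bars, diamonds for the brightest probe set of each gene and a dotted line at the median of all probe sets, -0.29. Values ran between -1.59 at PI4K2A and 2.49 at PI4KA; the PI4K2A values are a description, and the signs of the smallest differences depended on the scaling.

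A probe set was called at a limma adjusted p under 0.05 over all 54,613 probe sets that are not controls, together with a difference of at least 2-fold. In MVs minus EXOs, with PI4K2A left out, 0 of 27 member probe sets were called higher and 0 lower. An unadjusted p under 0.05 was found at 5 of the 27 and at 28.3% of all probe sets. Of all probe sets 7.23% were called higher and 1.97% lower in MVs than in EXOs. The median log2 fold change of the 27 probe sets was -0.06, and that of all probe sets -0.29. Counted by genes, 11.0% of all genes were called higher and 2.12% lower.

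In MVs minus hESEVs 0 of the 30 member probe sets were called in either direction. An unadjusted p under 0.05 was found at 8 of them and at 22% of all probe sets. Over all probe sets 4.25% were called higher and 1.05% lower, and over all genes 6.57% and 1.13%. The members' median was -0.20, as was that of all probe sets. Without PI4K2A, which was picked on the same MVs arrays, 6 of 27 had an unadjusted p under 0.05 and the median was 0.03. In EXOs minus hESEVs again 0 of 30 were called in either direction. An unadjusted p under 0.05 was found at 1 of them and at 11.6% of all probe sets. Here 0.103% of all probe sets were called higher and 1.95% lower, and 0.0910% and 3.04% of all genes. The members' median was 0.07 and that of all probe sets 0.03. Without PI4K2A 0 of 27 had an unadjusted p under 0.05, and the median was 0.04. These comparisons share arrays, and their counts are therefore given side by side only.

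By the arrays themselves, 5 of the 30 member probe sets had all MVs arrays above all EXOs arrays, where 13.2% of all probe sets did. They belonged to PI4K2B, PI4KA, PIP4K2A, PIKFYVE and PIK3C3. All MVs arrays lay below all EXOs arrays at 6 of 30, or 3 of 27 without PI4K2A, where 21.5% of all probe sets did. The 3 were in PIP5K1A, PIP4K2B and PIK3C3. The spread within groups was similar to that of the whole array in MVs, with a median SD on the log2 scale of 0.43 for the members and 0.40 for all probe sets. It was 0.58 and 0.43 in EXOs and 0.34 and 0.41 in hESEVs.

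The other genes of phosphoinositide metabolism were given as 13 lists of partners, related enzymes and effectors, with 126 of 136 genes measured and each represented by its brightest probe set. In MVs minus EXOs 12 were higher, 1 was lower and 113 did not pass, and their median was -0.22, against -0.23 for all genes. These are 9.52% higher and 0.794% lower, where 11.0% and 2.12% of all genes were called, so the shares called were no higher than among all genes. In MVs minus hESEVs 6 were higher, 1 was lower and 119 did not pass, with a median of -0.06 against -0.15 for all genes. Here 4.76% were higher and 0.794% lower, where 6.57% and 1.13% of all genes were called. In EXOs minus hESEVs 0 were higher and 1 was lower, which are 0% and 0.794%. Of all genes 0.0910% were called higher and 3.04% lower in that comparison. All 12 genes higher in MVs than in EXOs had a mean above the background level in MVs, but only 2, YWHAG and SNX3, also did in EXOs. For the other 10 the fold changes below are set against an EXOs signal that was not above background.

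Among the partners of PI4KA, 2 of 6 rose in MVs relative to EXOs. The other 4, EFR3B, TTC7A, TTC7B and HYCC2, had log2 fold changes between -0.79 and -0.39 that did not pass, and the median of the list was -0.51. EFR3A, which anchors the kinase complex at the plasma membrane, averaged 1367 ± 117 in MVs, 539 ± 130 in EXOs and 651 ± 204 in hESEVs (SD, n = 3 each), 2.58-fold higher in MVs than in EXOs (adjusted p = 0.00511). HYCC1, a scaffold of the same complex, was 2.2-fold higher (2015 ± 160 in MVs against 919 ± 102 in EXOs, adjusted p = 0.00147), but its mean over all probe sets of the gene turned to a log2 fold change of -0.22. Of 6 partners of PI4KB, RAB11A and YWHAG rose. RAB11A, a GTPase of recycling endosomes, averaged 5104 ± 278 in MVs, 1135 ± 290 in EXOs and 1646 ± 258 in hESEVs, 4.6-fold higher in MVs than in EXOs (adjusted p = 0.000186). YWHAG, a 14-3-3 protein, averaged 8183 ± 557 in MVs, 2000 ± 49.1 in EXOs and 2473 ± 138 in hESEVs, 4.09-fold higher (adjusted p = 4.21e-06). With quantile normalization YWHAG was higher by a log2 fold change of 0.71 only and HYCC1 by 0.88, under the 2-fold threshold.

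The 7 measured partners of PIK3C3 and the 2 of PIKFYVE held no call in MVs minus EXOs. Of 16 proteins that bind the products of these 2 kinases, WDFY1 and SNX3 rose. SNX3, a sorting nexin that binds PI3P on endosomes, averaged 3647 ± 291 in MVs, 1490 ± 309 in EXOs and 1422 ± 104 in hESEVs, 2.48-fold higher in MVs than in EXOs (adjusted p = 0.00169). WDFY1 was 2.27-fold higher (adjusted p = 0.00313). SNX3 was no longer called with quantile normalization, nor WDFY1 with the mean of its probe sets.

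Of 16 proteins that bind PI4P, AP3D1, OSBPL8 and OSBPL9 rose in MVs relative to EXOs. AP3D1, a subunit of the AP-3 adaptor that carries PI4K2A into vesicles, averaged 2039 ± 48.8 in MVs, 303 ± 69.8 in EXOs and 796 ± 507 in hESEVs, 6.85-fold higher in MVs than in EXOs (adjusted p = 9.24e-05). OSBPL8 was 2.22-fold and OSBPL9 4.53-fold higher (adjusted p = 0.00363 and 0.0341). OSBPL8 was under 2-fold with the mean of its probe sets, at a log2 fold change of 0.96. OSBPL9 missed the threshold without EXOs replicate 2 (adjusted p = 0.0696) and without each of MVs replicates 1, 2 and 3 (adjusted p = 0.0801, 0.107 and 0.107). In the synthesis and transfer of PI, 1 of 11 genes rose. This was CDIPT, which makes PI itself, with 1956 ± 147 in MVs, 756 ± 74.6 in EXOs and 1555 ± 273 in hESEVs. Its signal in MVs was 2.59-fold that of EXOs (adjusted p = 0.000535) and it was also the gene that fell in EXOs relative to hESEVs, with a log2 fold change of -1.03 (adjusted p = 0.00425). That difference was under 2-fold without EXOs replicate 1 (-0.95) and without hESEVs replicate 1 (-0.90).

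Of 27 genes on the list of phosphoinositide phosphatases and related proteins, INPP5F (2.12-fold, adjusted p = 0.0182) and MTMR2 (2.92-fold, adjusted p = 0.0479) were higher in MVs than in EXOs. INPP5F turned to a log2 fold change of -0.15 with the mean of its probe sets, and it missed the threshold without MVs replicate 2 or 3 (adjusted p = 0.0585 and 0.0616) and without EXOs replicate 2 or 3 (adjusted p = 0.064 and 0.0621). MTMR2 missed it without MVs replicate 1, 2 or 3 (adjusted p = 0.128, 0.0957 and 0.147) and without EXOs replicate 3 (adjusted p = 0.0846). No gene passed in MVs minus EXOs among 6 catalytic and 4 regulatory subunits of PI 3-kinases, 3 other PIP kinases and 12 phospholipases C, the enzymes that cleave PIP2. Their medians were -0.67, -0.75, -0.14 and -0.37. Of 10 potassium channels that need PIP2, KCNJ13 passed the test toward lower signals in MVs, with 47.4 ± 3.31 in MVs, 433 ± 186 in EXOs and 233 ± 155 in hESEVs (adjusted p = 0.0105). All 3 means were below background, so no fold change is given. Of the 33 tissue-restricted genes behind that level, 2 were also called lower in MVs than in EXOs, and 2 were called higher (6.06% each). With low signals left out KCNJ13 was not tested. Relative to hESEVs, MVs were higher in EFR3A, RAB11A, YWHAG, AP3D1, WDFY1 and SNX3. They were lower in TPCN2, a channel of endosomes and lysosomes named after its value was seen, with 563 ± 123 in MVs against 1123 ± 11.2 in hESEVs (adjusted p = 0.0201). The calls of EFR3A, AP3D1 and TPCN2 against hESEVs (limma adjusted p = 0.0321, 0.0444 and 0.0201) were lost in most fits with 1 array fewer. Their log2 fold changes mostly stayed similar there. They were smaller for EFR3A without hESEVs replicate 1 (0.84), AP3D1 without hESEVs replicate 3 (1.06) and TPCN2 without MVs replicate 2 (-0.83). EFR3A missed the threshold when MVs replicate 1, 2 or 3 or hESEVs replicate 1 or 3 was left out (adjusted p between 0.0597 and 0.0997). AP3D1 missed it when any array other than hESEVs replicate 2 was left out (between 0.0526 and 0.115). TPCN2 missed it without MVs replicate 2 and when any hESEVs array was left out (between 0.0623 and 0.0663). With quantile normalization 0 of the 6 genes were called higher in MVs than in hESEVs. With the mean of a gene's probe sets RAB11A (log2 fold change 0.77, adjusted p = 0.117), WDFY1 (0.42, adjusted p = 0.211) and TPCN2 (-0.45, adjusted p = 0.46) were not called there. TPCN2 was not called either with quantile normalization (-0.93), centring (-0.81) or the spike-ins (-0.99).

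**Figure D4:**
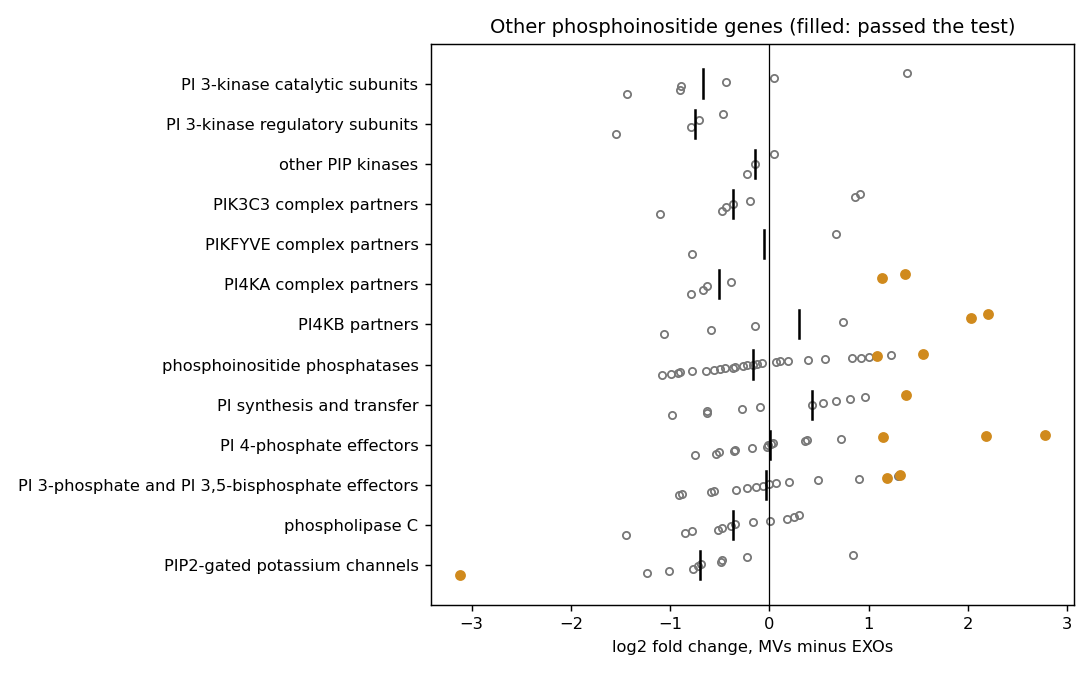
Log2 fold change (MVs minus EXOs) of the 126 other phosphoinositide genes in 13 lists, with points for genes, filled where a gene passed the test, and black lines for list medians. The 12 genes higher in MVs came from 6 lists and the gene lower in MVs, KCNJ13, from the potassium channels; HYCC1 and INPP5F turn negative with the mean of their probe sets.

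As a description of which mRNAs varied like PI4K2A, the probe sets with 1 gene and a mean above background in at least 1 group, 5371 in all, were compared with 209345_s_at over the 9 arrays. The highest Pearson correlations were those of OR51B2 (r = 0.975), OR7E12P (0.948), DMWD (0.943), OTUD3 (0.936) and SETD5 (0.934). OR51B2 is annotated as an olfactory receptor and OR7E12P as a pseudogene of that family. The signals of OR51B2 averaged 1030 in MVs, 1527 in EXOs and 1340 in hESEVs. The 9 points share the array scaling and fall into 3 groups.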

How the data were processed

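The authors obtained the values from the array scans by MAS5 (version not given in the sources used here) and deposited 1 linear intensity for each probe set, scaled to a target of 500. The study's own comparison used RMA values and an unpaired t-test, which are not used here except that the t-test was run as an alternative. Signals under 32 were raised to 32 and log2 was taken. The 62 control probe sets were left out, and the array annotation gave the gene or genes of each probe set. Gene IDs and chromosomes come from RefSeq, whose symbols needed no update.

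MVs minus EXOs was fitted on the 6 arrays of these groups, and MVs or EXOs minus hESEVs on all 9, with limma 3.58.1 in R 4.3.3 (lmFit, eBayes with a trend, two-sided, Benjamini-Hochberg over 54,613 probe sets). A call needed an adjusted p under 0.05 and at least a 2-fold difference. No filter on low signals was used in these fits. Each gene is named by its brightest probe set (mean log2 signal), further probe sets where they were called or had the other sign, and up to 4 called genes of each other list by their p. The remaining member probe sets are given so that all are accounted for. The members, the lists and the tests were chosen with earlier results of these data known.

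Replicate numbers were not taken to pair the arrays: deviations from the group means of arrays with the same number correlated between -0.011 and 0.013. The alternatives were floors of 1 and 100, quantile normalization, centring on the array median, a shift to the 9 spike-in probe sets of the hybridization, a filter on low signals, other uses of a gene's probe sets, no trend, other arrays in the fit, a replicate block, other tests and leaving out each replicate. The precision is set by the number of arrays, which hold no counts. The fit was tested on simulated data. Python 3.11.15 with numpy 2.4.6 and pandas 2.3.3 wrote the tables, and matplotlib 3.10.9 drew the figures.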

Additional observations from a re-analysis of the deposited data

How the results depend on the processing

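Most kinase signals lay below background, 3 arrays a group limit the precision, and the sign of many members changed with the setting. With PI4K2A left out, 1 member probe set was called higher in MVs than in EXOs with centring, with the spike-ins, with 1 probe set per gene, with the mean of the probe sets of a gene, and with either test without adjustment. It was 207081_s_at of PI4KA, also in the mean, which holds no other probe set of that gene. With quantile normalization and with no fold threshold 1, PIP5K1A, was called lower. Over all 54,613 probe sets centring gave 4765 higher in MVs than in EXOs and the spike-ins 4246. The unadjusted limma p gave 5357 and the unadjusted t-test 4692. Over 19,775 genes 1 probe set per gene gave 2293 higher and the mean of the probe sets 1769. Quantile normalization gave 1362 of all probe sets lower in MVs than in EXOs, and no fold threshold 2267 lower. For MVs minus hESEVs the unadjusted limma p gave 2 member probe sets higher (of PIP4K2A and PIP4K2B) and 1 lower (of PIP4K2B). Over all 54,613 probe sets it gave 3825 higher and 2758 lower. Use of no fold threshold gave 1 member probe set lower (of PIP5K1A) and 1268 over all probe sets. Leaving out a replicate gave 0 to 1 higher in MVs than in EXOs, and 0 to 1 higher and 0 to 1 lower in MVs than in hESEVs, at the probe sets of PI4KA, PIP4K2B, PI4K2A and PIKFYVE given in the report. Over all probe sets 3641 were higher in MVs than in EXOs without EXOs replicate 1. Relative to hESEVs 517 were lower in MVs without MVs replicate 1, 1820 higher without MVs replicate 2 and 586 lower without MVs replicate 3. The filter on low signals kept 16 of the 30 in the fit of MVs minus EXOs and 17 in the fits with hESEVs.

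Among the other phosphoinositide genes, 7 were higher in MVs than in EXOs and 3 higher in MVs than in hESEVs when shared probe sets were left out, against 12 and 6. The 12 include RAB11A, MTMR2, CDIPT, AP3D1 and SNX3, and the 6 include RAB11A, AP3D1 and SNX3, each represented by a shared probe set. These genes were not tested at another probe set, so the lower counts are no failed tests of them. Smaller changes of a count, within a tolerance set for these checks, are not listed. For example, HYCC1, YWHAG, INPP5F and SNX3 were not called in MVs minus EXOs with quantile normalization. For MVs minus hESEVs 0 were higher with quantile normalization and 10 with no fold threshold. Of all probe sets 993 and 2827 were higher with these settings, against 2320 in the report. The count lower in MVs than in EXOs, 1 in the report, was 2 with a floor of 100, quantile normalization, 1 probe set per gene, no trend, other arrays, no fold threshold and the methods' t-test with or without adjustment, 3 with the mean of probe sets or unadjusted limma, 0 with the filter on low signals, and 1 to 2 without a replicate. Of all probe sets 3840 were lower in MVs than in EXOs with unadjusted limma, against 1078 in the report. The count lower in MVs than in hESEVs was 2 with floors of 1 and 100, the filter and 1 probe set per gene. It was 5 with either test without adjustment, 0 with quantile normalization, centring or spike-ins, and 0 to 2 without a replicate. Of all probe sets 2758 were lower there with unadjusted limma and 2131 with the unadjusted t-test. Quantile normalization, centring and the spike-ins gave 482, 219 and 427, against 572 in the report. In EXOs minus hESEVs 1 was higher with either test without adjustment, where 1190 of all probe sets were with limma and 818 with the t-test. The count lower in EXOs than in hESEVs was 0 when shared probe sets were left out, which removed CDIPT untested. It was also 0 without a trend, 2 with unadjusted limma, and 0 to 2 without a replicate. CDIPT was not called without EXOs replicate 1 or hESEVs replicate 1.

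With the replicate block, 3524 probe sets were higher and 575 lower in MVs than in EXOs, against 3949 and 1078, the members' counts stayed 0, and 2 other phosphoinositide genes were lower in MVs than in hESEVs, against 1. No other count of members or lists moved beyond that tolerance with the block. Over whole tables the alternatives gave 1596 to 5357 calls higher and 336 to 3840 lower in MVs than in EXOs, 854 to 3825 higher and 211 to 2758 lower in MVs than in hESEVs, and 14 to 1190 higher and 291 to 2403 lower in EXOs than in hESEVs. These fits differ in size: the counts 1596, 854, 14 and 291 are over the 37,394 probe sets left without shared ones, and 211 is over 19,775 genes. Centring gave 4765 higher and 336 lower in MVs than in EXOs.

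These log2 fold changes in MVs minus EXOs turned sign. With quantile normalization, centring and the spike-ins, 211205_x_at of PIP5K1A became 0.17, 0.18 and 0.006, and PIP5K1C 0.12, 0.21 and 0.034. Centring gave 0.10 for 206139_at of PI4KB. The mean of a gene's probe sets gave 0.19 for PI4KB, -0.22 for PIP4K2A, 0.079 for PIKFYVE, -0.22 for HYCC1 and -0.15 for INPP5F. In MVs minus hESEVs it gave 0.004 for PI4KB, 0.08 for PIP4K2B and 0.30 for PIKFYVE, and in EXOs minus hESEVs -0.10 for PIP5K1A and 0.33 for PIP4K2B.

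Leaving out each replicate gave ranges across 0 in MVs minus EXOs of -0.54 to 0.60 and -1.41 to 0.085 for 211205_x_at and 210256_s_at of PIP5K1A, -0.58 to 0.42 for PIP5K1C, -0.37 to 0.19 and -0.01 to 0.55 for 206139_at and 210417_s_at of PI4KB, -1.37 to 0.19 for 229713_at of PIP4K2A, -1.12 to 0.74 for PIP4K2B, -0.088 to 1.67 for 213408_s_at of PI4KA, -0.15 to 1.94 for 1557719_at of PIKFYVE, and -0.065 to 0.47 and -1.17 to 0.039 for 204297_at and 232086_at of PIK3C3. In MVs minus hESEVs the range was -1.57 to 0.19 for PIP4K2B. In EXOs minus hESEVs the ranges were -0.034 to 0.10 for PIP5K1A, -0.95 to 0.18 for PIP4K2B, -1.52 to 0.078 for PI4K2B, -1.38 to 0.37 for PI4KA, -0.14 to 0.34 for PIKFYVE, -0.39 to 0.53 for PIP4K2A and -1.10 to 0.056 for PIP5K1C. The cause of these changes was not tested. In MVs minus EXOs, MTMR2, OSBPL9 and INPP5F missed the threshold with no trend and with the adjusted t-test, and each also without some replicates.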
